A study of Mus musculus with 6 samples.

Results

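Keratins are the intermediate filament proteins of epithelia, and their genes were examined here in 6 RNA-seq libraries of epithelium from the antrum, which is the distal part of the stomach, of mice. The members were taken by name, as every gene of the deposited table called Krt followed by a number and at most one letter, which gave 33 of 17256 genes. Genes for keratin-associated proteins were left out. By the sites at which the proteins are known to occur, 6 of the 33 were grouped as simple epithelial keratins, 17 as squamous keratins, 6 as hair shaft keratins and 2 as keratins of the hair follicle sheath, while Krt222 and Krt88 were put in no group. All mice were of the strain C57BL/6 and had been given MNNG, an alkylating carcinogen, with a drug spelled Ranitine in the labels for 20 weeks to induce atrophic gastritis. After that, 3 libraries came from mice given vehicle for 2 weeks and 3 from mice given PEEPA-P5, an agent known here only by its code name, by gavage for 2 weeks. There were no mice without MNNG and Ranitine among the samples, and ages were not given in the sources used here. Whether each library stands for a mouse of its own is not stated, so the spread behind every p-value may be partly or wholly technical. Total counts per library ran from 16388852 to 16903559.

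A keratin filament is built from pairs of unlike chains, an acidic type I chain with a neutral to basic type II chain. Single-layered epithelia such as that of the stomach mainly use Krt8 as the type II chain and Krt18 and Krt19 as type I chains, with Krt7 and Krt20 added in particular cell types, Krt20 being known from mature surface cells of stomach and intestine. Stratified squamous epithelia, in the mouse also that of the forestomach, use Krt5 and Krt14 in basal cells and pairs such as Krt4 with Krt13, or Krt1 with Krt10, above them. Hair keratins form the hard filaments of the hair shaft.

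The 250 bases before the annotated start are shown for the 4 keratins with the smallest p-values in the comparison of PEEPA-P5 with vehicle, and for Krt8, the most abundant type II keratin, so that the upstream sequence of genes that were higher together can be read beside their values. They are RefSeq sequences of build GRCm38.p6, printed 5′ to 3′ on the gene's strand, and 21 of the 33 keratins had a window in that table. Capitals mark matches on either strand to 4 motifs. The TATA box was searched as TATAAA. The AP-1 site, bound by the Jun and Fos family, was searched as TGANTCA. The KLF box, bound by factors such as Klf4, was searched as CACCC. The Sp1 box of many housekeeping promoters was searched as GGGCGG.
Krt78 (chr15:101954288-101954537, minus strand): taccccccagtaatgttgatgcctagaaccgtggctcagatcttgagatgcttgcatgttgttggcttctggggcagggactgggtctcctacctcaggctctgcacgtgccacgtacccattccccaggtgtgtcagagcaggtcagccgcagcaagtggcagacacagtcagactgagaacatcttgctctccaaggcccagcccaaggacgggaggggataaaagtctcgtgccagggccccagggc
Krt79 (chr15:101940325-101940574, minus strand): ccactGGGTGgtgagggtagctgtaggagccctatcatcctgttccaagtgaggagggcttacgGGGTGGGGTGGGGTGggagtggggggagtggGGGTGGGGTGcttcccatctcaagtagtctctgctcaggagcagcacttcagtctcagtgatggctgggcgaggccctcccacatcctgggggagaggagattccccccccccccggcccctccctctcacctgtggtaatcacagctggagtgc
Krt13 (chr11:100121567-100121816, minus strand): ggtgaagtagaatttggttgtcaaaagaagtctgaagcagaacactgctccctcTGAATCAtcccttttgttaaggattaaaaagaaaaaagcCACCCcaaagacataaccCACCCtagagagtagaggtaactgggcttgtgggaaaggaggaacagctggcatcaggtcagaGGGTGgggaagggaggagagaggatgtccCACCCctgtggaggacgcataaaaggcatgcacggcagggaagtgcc
Krt20 (chr11:99438154-99438403, minus strand): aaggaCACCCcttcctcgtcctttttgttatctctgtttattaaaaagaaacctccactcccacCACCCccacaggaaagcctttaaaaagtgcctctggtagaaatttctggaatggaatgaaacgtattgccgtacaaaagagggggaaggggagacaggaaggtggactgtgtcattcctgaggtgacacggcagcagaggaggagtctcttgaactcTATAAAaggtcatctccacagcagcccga
Krt8 (chr15:102004343-102004592, minus strand): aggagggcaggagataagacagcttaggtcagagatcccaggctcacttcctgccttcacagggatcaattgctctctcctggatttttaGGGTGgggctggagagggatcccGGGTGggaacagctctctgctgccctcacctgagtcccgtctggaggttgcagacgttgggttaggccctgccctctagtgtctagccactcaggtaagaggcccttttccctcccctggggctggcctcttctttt
The Krt78 window held no match to any of the 4 motifs. In the Krt79 window 6 KLF boxes were found, 5 of them back to back in 2 runs, and 0.231% of 32851 windows of the same length had at least 6. That limit is the Krt79 count itself, the highest among the keratin windows, and back-to-back copies of a repeat are not independent matches. The share is therefore no test of this window. The Krt20 window held a TATA box beginning at base -29 from the start, and the Krt13 window shown, one of 2 for that gene, held an AP-1 site. At least 1 KLF box was present in 18 of 22 keratin windows and in 52% of all windows, a TATA box in 5 of 22 and 12.4%, an AP-1 site in 2 of 22, both of Krt13, and 6.75%, and an Sp1 box in 1 of 22 and 32.7%. In the windows shown no matches overlapped. A match is a stretch of letters and not a measured binding site.

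Before the values, 2 libraries have to be set apart. All 12 markers listed for antral epithelium were above the count filter. However, Gast, the gastrin gene of antral G cells, was at 9492 TPM in vehicle 1, 6822 TPM in vehicle 2 and 609.6 TPM in vehicle 3. It was at 7032, 4990 and 199.4 TPM in PEEPA-P5 1, 2 and 3. TPM is a level corrected for gene length that sums to the same total in every library. Gast was thus lowest in the libraries numbered 3 of both groups. Vehicle 3 also had the highest level of Pgc, the pepsinogen C gene, at 68237 TPM against 8169 and 22536 TPM in vehicle 1 and 2, while PEEPA-P5 3 had the lowest, at 2065 TPM against 6512 and 8774 TPM in PEEPA-P5 1 and 2. The keratin differences are therefore also given without both libraries numbered 3. In tissue libraries such as these, fewer cells of a type and less RNA per cell cannot be told apart.

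No keratin passed the adjusted threshold with edgeR's quasi-likelihood test, which called 0 of 13071 genes (0%) at an adjusted p under 0.05. The estimated difference was nevertheless in the same direction, towards more transcript with PEEPA-P5, for 15 of 15 keratins with enough counts to be tested, against 49.4% of all genes tested. At an unadjusted p under 0.05, 8 of the 15 were higher, where 5.92% of all genes were, and 0 were lower, where 6.14% were. The 8 became 5 without vehicle 2, where 2.44% of all genes were higher, 5 without PEEPA-P5 3 (3.85%) and 5 without both libraries numbered 3 (3.47%). CPM values, which are counts scaled to library size, of the 2 groups did not overlap for 11 of the 15, all higher with PEEPA-P5, against 9.74% of all genes in that direction and 10.7% in the other. Of those 11, Krt18, Krt13 and Krt15 did overlap in TPM, the unit used for levels below. The median log2 fold change was 0.53 over the 15 keratins, 0.41 over the 6 simple epithelial and 0.80 over the 9 tested squamous keratins, and -0.00 over all genes. The other 18 keratins were too low to be tested. DESeq2, run on the same counts, called 2 keratins, Krt78 (adjusted p 8.6e-08) and Krt79 (adjusted p 0.0077), whose adjusted p reached 0.78 in other fits, and 103 genes in all (0.788%), of which 41 were higher (0.314%), whereas limma-voom called 0 genes and had 8 keratins higher at an unadjusted p under 0.05, against 5.91% of all genes.

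**Figure D1:**
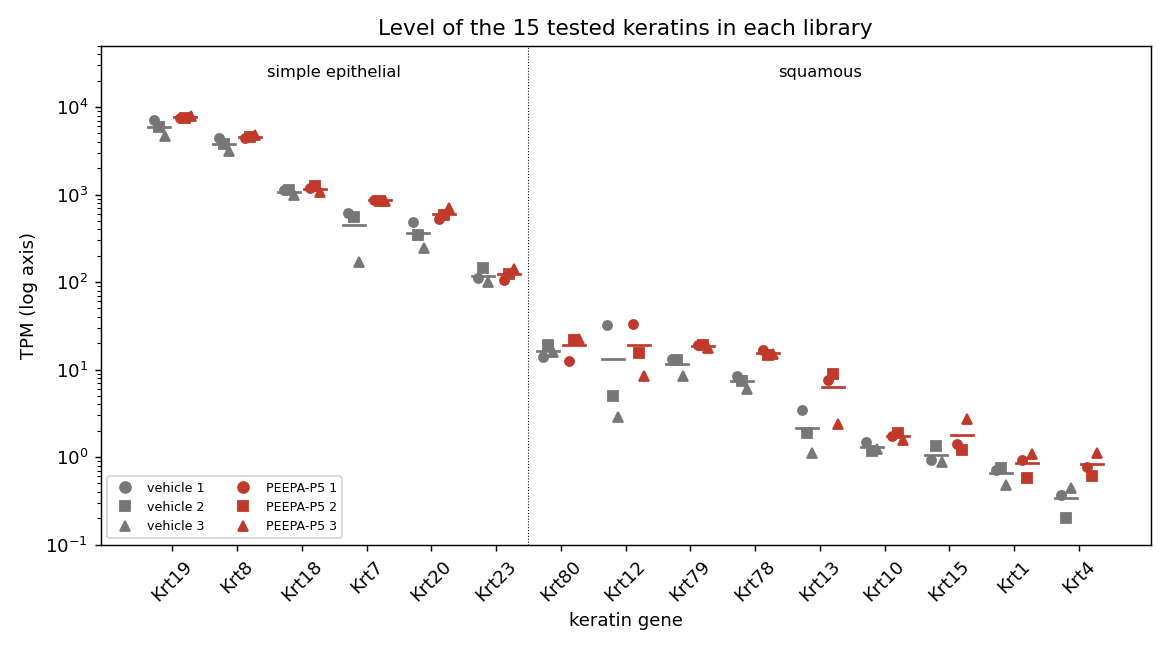
TPM on a log axis for the 15 tested keratins, with 1 point per library, marker shape for the library number and a horizontal line at each group mean. Simple epithelial keratins lie between 101.2 and 7814 TPM, squamous keratins at or below 33.25 TPM, and the low Krt7 value of vehicle 3 at 171.4 TPM stands apart from the other vehicle libraries.

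Simple epithelial keratins made up nearly all keratin transcript. Their summed level was 13750, 11820 and 9321 TPM in vehicle libraries 1, 2 and 3 and 14640, 14880 and 15300 TPM in PEEPA-P5 1, 2 and 3, or 14940 ± 333 TPM against 11630 ± 2221 TPM (SD, n = 3 each). All PEEPA-P5 libraries lay above all vehicle libraries, and vehicle 1 was the vehicle library closest to them. Keratins together took 1.502 ± 0.032% of all TPM with PEEPA-P5 and 1.169 ± 0.224% with vehicle (SD, n = 3 each). By contrast, the squamous keratins together held 0.472% to 0.642% of keratin TPM with PEEPA-P5 and 0.398% to 0.542% with vehicle.

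Krt19 (Entrez 16669), a small type I keratin of simple epithelia, was the most abundant keratin in every library, at 7026, 5857 and 4694 TPM in vehicle libraries 1, 2 and 3 and 7571, 7533 and 7814 TPM in PEEPA-P5 1, 2 and 3. The groups did not overlap, although vehicle 1 came close, and the log2 fold change was 0.44 with a standard error (SE) of 0.15 (edgeR unadjusted p 0.020, adjusted p 0.412). Its type II partner Krt8 (Entrez 16691) followed at 4390, 3793 and 3116 TPM with vehicle and 4392, 4519 and 4736 TPM with PEEPA-P5. Here vehicle 1 and PEEPA-P5 1 were almost level, and the log2 fold change was 0.39 (SE 0.15, edgeR adjusted p 0.412). Krt18 (Entrez 16668), the usual type I partner of Krt8, was at 1121, 1136 and 993.4 TPM with vehicle and 1179, 1260 and 1062 TPM with PEEPA-P5, so its TPM values overlapped between the groups, with a log2 fold change of 0.21 (SE 0.10). Krt23, a less studied type I keratin, was the lowest of the simple group, at 111.3, 143.9 and 101.2 TPM with vehicle and 104.5, 123.9 and 139.4 TPM with PEEPA-P5, and overlapped too. Without both libraries numbered 3 the log2 fold changes were 0.29 for Krt19, 0.23 for Krt8, 0.23 for Krt18 and -0.04 for Krt23. Of the 31-base stretches in annotated Krt8 transcripts, 32.2% also occur in Krt8-ps, and 11.4% of those of Krt18 occur in other genes, so a part of the reads of these genes could be divided by the counting. For Krt19, Krt7, Krt20 and Krt23 that share was at most 2.11%.

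Krt7 and Krt20, the simple keratins of narrower range, had larger estimated differences than Krt8, Krt18 and Krt19, although the gap between the genes was not tested. Krt7 (Entrez 110310), a type II keratin of ducts and glands, was at 613.3, 548.1 and 171.4 TPM in vehicle libraries 1, 2 and 3 and at 869.1, 855.4 and 847.2 TPM in PEEPA-P5 1, 2 and 3. The PEEPA-P5 libraries had an SD of only 11.08 TPM, and the vehicle libraries were all lower, with vehicle 3 far below the others. The log2 fold change was 1.09 (SE 0.39, edgeR unadjusted p 0.028, adjusted p 0.412), and 0.74 without vehicle 3 or 0.68 without both libraries numbered 3. Krt20 (Entrez 66809) stood at 489.7, 345.9 and 245.1 TPM with vehicle and 524.6, 590.7 and 699.3 TPM with PEEPA-P5. Again no PEEPA-P5 library was as low as any vehicle library, and the log2 fold change was 0.87 (SE 0.26, edgeR unadjusted p 0.012, adjusted p 0.412), or 0.51 without both libraries numbered 3. Within the family, Krt7 made up 5.71 ± 0.19% of keratin TPM with PEEPA-P5 against 3.63 ± 1.56% with vehicle, and Krt20 4.02 ± 0.50% against 3.03 ± 0.47% (SD, n = 3 each). Krt20 per Krt8 was 0.119, 0.131 and 0.148 with PEEPA-P5 1, 2 and 3 and 0.112, 0.091 and 0.079 with vehicle 1, 2 and 3, whereas the share of Krt19 was between 49.3% and 51.4% in all libraries. A list of 6 intestinal genes summed to 393.1, 352.5 and 206.1 TPM with vehicle and 508.7, 662.5 and 515.8 TPM with PEEPA-P5, which did not overlap. Each member by itself did overlap in TPM. In PEEPA-P5 3, for example, Fabp2 had its lowest level of all libraries, 65.92 TPM, and Tff3 its highest, 328.7 TPM. All 5 tested members had positive log2 fold changes, against 49.4% of all genes, with a median of 1.3. At an unadjusted p under 0.05, 0 of the 5 were higher and 0 lower, where 5.92% and 6.14% of all genes were. Cdx2, the defining factor of the list, was at 0.31, 1.17 and 0.65 TPM against 0.34, 1.56 and 2.73 TPM, which overlapped. The part of such cells in the Krt20 difference was not tested.

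The balance of the chain types was nearly constant. Type I keratins summed to 8786, 7492 and 6040 TPM in vehicle libraries 1, 2 and 3 and to 9424, 9536 and 9730 TPM in PEEPA-P5 1, 2 and 3, and type II keratins to 5040, 4382 and 3319 TPM and to 5312, 5431 and 5641 TPM. Type II per type I transcript was 0.574, 0.585 and 0.550 with vehicle and 0.564, 0.570 and 0.580 with PEEPA-P5, at 0.571 ± 0.008 against 0.569 ± 0.018 (SD, n = 3 each). The 6 ratios thus lay within a narrow band in which the groups overlapped, while both sums were lowest in vehicle 3 and highest in PEEPA-P5 3. Among the type II chains the part that was Krt7 differed, with Krt7 per Krt8 at 0.198, 0.189 and 0.179 in PEEPA-P5 1, 2 and 3 and 0.140, 0.145 and 0.055 in vehicle 1, 2 and 3.

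**Figure D2:**
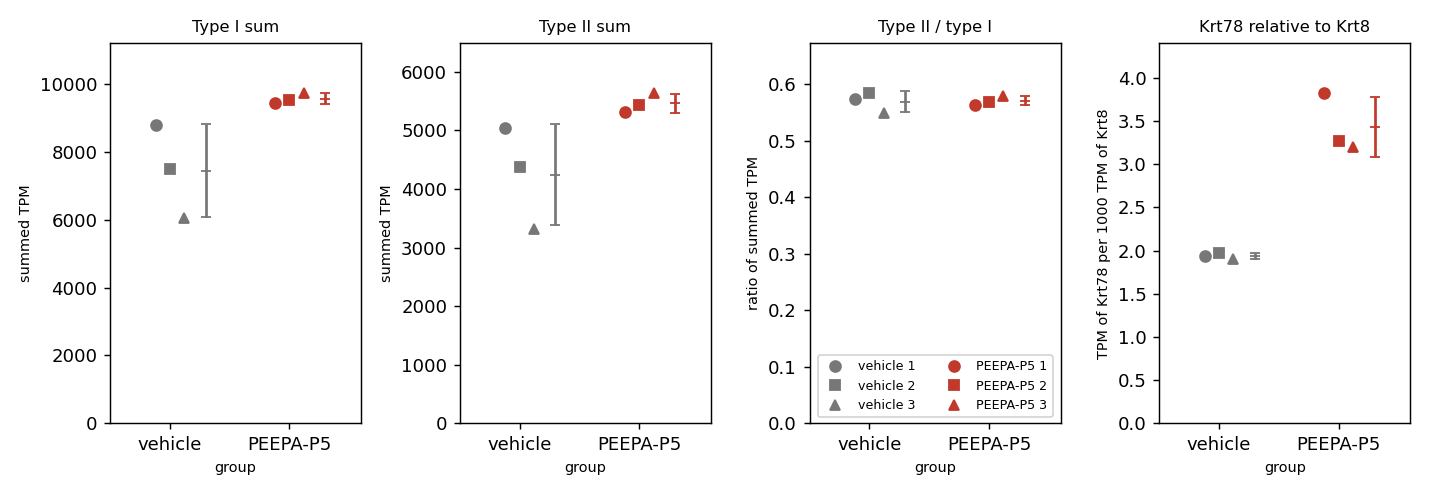
Summed TPM of type I and of type II keratins, their ratio, and the TPM of Krt78 per 1000 TPM of Krt8, each with 1 point per library and the group mean with SD as a bar beside the points. The sums are higher in all PEEPA-P5 libraries, the type ratio overlaps between 0.550 and 0.585, and Krt78 relative to Krt8 forms a tight vehicle group at 1.91 to 1.98 below PEEPA-P5 at 3.19 to 3.82.

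Of the 17 squamous keratins, 9 were tested and 4 of these, Krt78, Krt79, Krt13 and Krt4, were higher at an unadjusted p under 0.05, against 5.92% of all genes. Krt78 (Entrez 332131), a type II keratin, had the smallest p of the family, with 8.49, 7.49 and 5.94 TPM in vehicle libraries 1, 2 and 3 and 16.79, 14.75 and 15.13 TPM in PEEPA-P5 1, 2 and 3. No value of one group came near the other, and the log2 fold change of 1.18 (SE 0.14, edgeR unadjusted p 5.7e-05, adjusted p 0.412) moved only between 1.12 and 1.32 on leaving out single libraries. Without both libraries numbered 3 it was 1.07. Krt79 (Entrez 223917), the type II keratin encoded next to Krt78, was at 13.36, 12.87 and 8.37 TPM with vehicle and 19.03, 19.14 and 17.48 TPM with PEEPA-P5. Its groups did not overlap either, and the log2 fold change was 0.80 (SE 0.15, edgeR unadjusted p 0.00085, adjusted p 0.412), or 0.65 without both libraries numbered 3. On its other side Krt78 adjoins Krt8.

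Krt78 was also compared with Krt8, its abundant neighbour. Per 1000 TPM of Krt8 there were 1.93, 1.98 and 1.91 TPM of Krt78 in vehicle libraries 1, 2 and 3 and 3.82, 3.26 and 3.19 TPM in PEEPA-P5 1, 2 and 3, as the plot of chain balance shows. The ratio was nearly the same in the vehicle libraries although their Krt8 levels ran from 3116 to 4390 TPM. Krt79 per Krt78 was lower with PEEPA-P5, at 1.195 ± 0.089 against 1.567 ± 0.155 (SD, n = 3 each). These ratios were formed after the values had been seen and were not tested.

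Krt13 (Entrez 16663) and Krt4 (Entrez 16682), which pair with each other above the basal layer of internal squamous epithelia, were rare. Krt13 was at 3.41, 1.89 and 1.12 TPM in vehicle libraries 1, 2 and 3 and at 7.69, 8.95 and 2.39 TPM in PEEPA-P5 1, 2 and 3. PEEPA-P5 3 lay within the vehicle range in TPM and just above it in CPM, at 3.83 against 3.57 in vehicle 1, and the log2 fold change was 1.72 (SE 0.49, edgeR unadjusted p 0.0093, adjusted p 0.412). Krt4 rested on 6 to 14 counts per vehicle library and 19 to 36 counts per PEEPA-P5 library, or 0.37, 0.20 and 0.44 TPM against 0.76, 0.60 and 1.11 TPM, with a log2 fold change of 1.38 (SE 0.53). Without both libraries numbered 3 these log2 fold changes were 1.79 and 1.33. On log2(TPM + 1), which understates low genes, that of Krt4 was 0.44. Krt13 per Krt4 in TPM was 9.22, 9.45 and 2.55 in vehicle libraries 1, 2 and 3 and 10.12, 14.9 and 2.15 in PEEPA-P5 1, 2 and 3, lowest in the libraries numbered 3.

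Krt1 and Krt10, the pair of cornifying skin, were at similar low levels. Krt10 was at 1.48, 1.18 and 1.22 TPM with vehicle and 1.73, 1.87 and 1.55 TPM with PEEPA-P5, which did not overlap, with a log2 fold change of 0.42 (SE 0.27, edgeR adjusted p 0.530). Krt1 was at 0.72, 0.75 and 0.48 TPM against 0.92, 0.57 and 1.09 TPM and overlapped. Krt15, a type I keratin of basal cells, was at 0.92, 1.34 and 0.88 TPM with vehicle and 1.41, 1.21 and 2.73 TPM with PEEPA-P5, and PEEPA-P5 3 alone was far from the rest. Without PEEPA-P5 3 the log2 fold change of Krt15 was 0.38 in place of 0.92, and that of Krt1 0.24 in place of 0.53. Without both libraries numbered 3 the log2 fold changes were 0.50 for Krt10, 0.34 for Krt15 and 0.12 for Krt1. Krt80, a type II keratin found in many epithelia, was at 13.90, 19.29 and 15.67 TPM with vehicle and 12.48, 21.62 and 22.41 TPM with PEEPA-P5, and its log2 fold change of 0.33 was 0.10 without PEEPA-P5 3, 0.57 without PEEPA-P5 1 and 0.16 without both libraries numbered 3.

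Krt12, a type I keratin best known from the cornea, varied more within the groups than any other tested keratin. It was at 31.98, 4.95 and 2.86 TPM in vehicle libraries 1, 2 and 3 and 33.25, 15.55 and 8.34 TPM in PEEPA-P5 1, 2 and 3. In both groups the library numbered 1 was the highest and that numbered 3 the lowest. The log2 fold change was 0.53 with an SE of 0.98 (edgeR adjusted p 0.830), 2.38 without vehicle 1, -0.09 without PEEPA-P5 1 and 0.41 without both libraries numbered 3. With the library number as a replicate block it was 1.09 (edgeR unadjusted p 0.049, adjusted p 0.36, which ran from 0.21 to 0.98 over all fits), and each PEEPA-P5 library was above the vehicle library of its number, narrowly so for number 1. What the numbers stand for is not given in the labels.

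**Figure D3:**
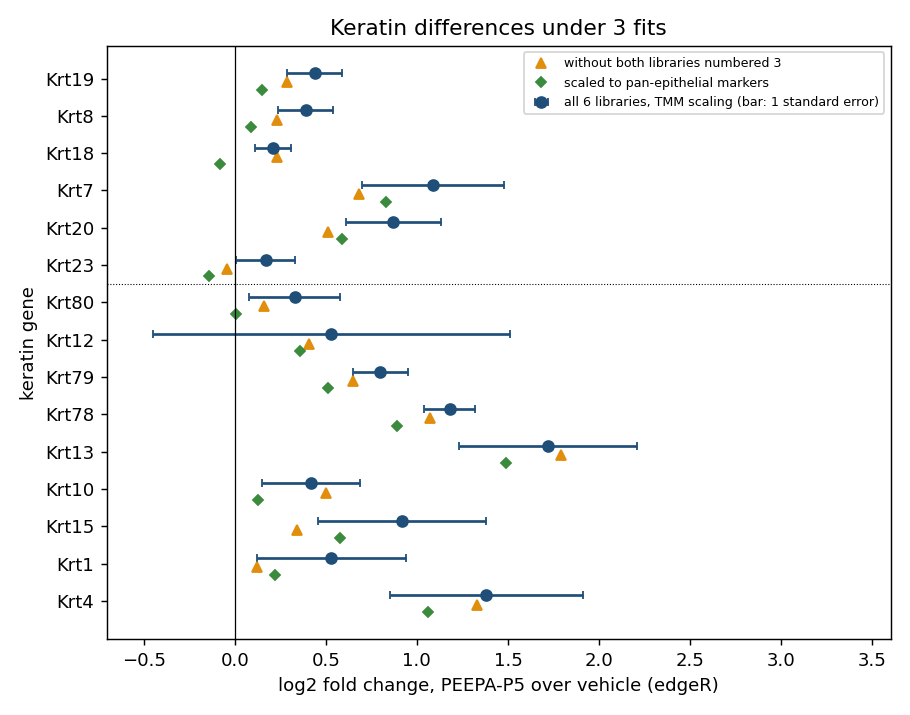
Log2 fold change of the 15 tested keratins, PEEPA-P5 over vehicle, with all libraries (circles, bars of 1 standard error), without both libraries numbered 3 (triangles) and with libraries scaled to pan-epithelial markers (diamonds). Krt13, Krt4, Krt78 and Krt7 lie furthest to the right, and Krt18 and Krt23 fall below 0 under the epithelial scaling, at -0.08 and -0.14.

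The keratins that define basal squamous cells were nearly absent. Krt5 had 1 count in vehicle 2 and 1 in PEEPA-P5 1, Krt14 had 1 count in each of PEEPA-P5 1 and 2, and neither had any in the other 4 libraries. Krt16 and Krt17, keratins of activated and appendage epithelium, had at most 1 count in a library, and Krt2 had 3 counts in PEEPA-P5 1, 2 in PEEPA-P5 3 and 0 elsewhere. Of the untested squamous keratins only Krt77 reached more than 3 counts, with 5, 4 and 4 in vehicle libraries 1, 2 and 3 and 11, 9 and 6 in PEEPA-P5 1, 2 and 3. Trp63, the master regulator of basal squamous cells, was not among the genes of the table and so could not be analysed here.

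Hair keratins were nearly absent. Of the 6 hair shaft keratins Krt87 had 3, 11 and 4 counts with vehicle and 6, 6 and 2 with PEEPA-P5, Krt36 0 to 5 counts, and Krt33a at most 2, and Krt39, Krt82 and Krt83 at most 1. Their summed level was 0.18 to 0.69 TPM with vehicle and 0.23 to 0.48 TPM with PEEPA-P5, which overlapped. The sheath keratins Krt25 and Krt28 had at most 1 count. Krt222 and Krt88 had at most 4 and 3 counts.

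The tested keratins lie side by side in the genome, in the gene order of GRCm38.p6. On chromosome 15, Krt4, Krt79, Krt78, Krt8 and Krt18 follow each other at one end of the type II cluster, with Krt18 the only type I gene there, and all 5 had positive log2 fold changes, of 1.38, 0.80, 1.18, 0.39 and 0.21. Krt80 and Krt7 are neighbours at its other end. On chromosome 11 the tested type I keratins form 2 runs, Krt10, Krt12, Krt20 and Krt23 in one and Krt13, Krt15 and Krt19 in the other. In both clusters, simple and squamous keratins are mixed within such runs. Krt1 stands alone, between Krt2 and Krt77. The other keratin genes of the clusters, hair keratins among them, had too few counts to test or were not in the table and so not analysed.

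**Figure D4:**
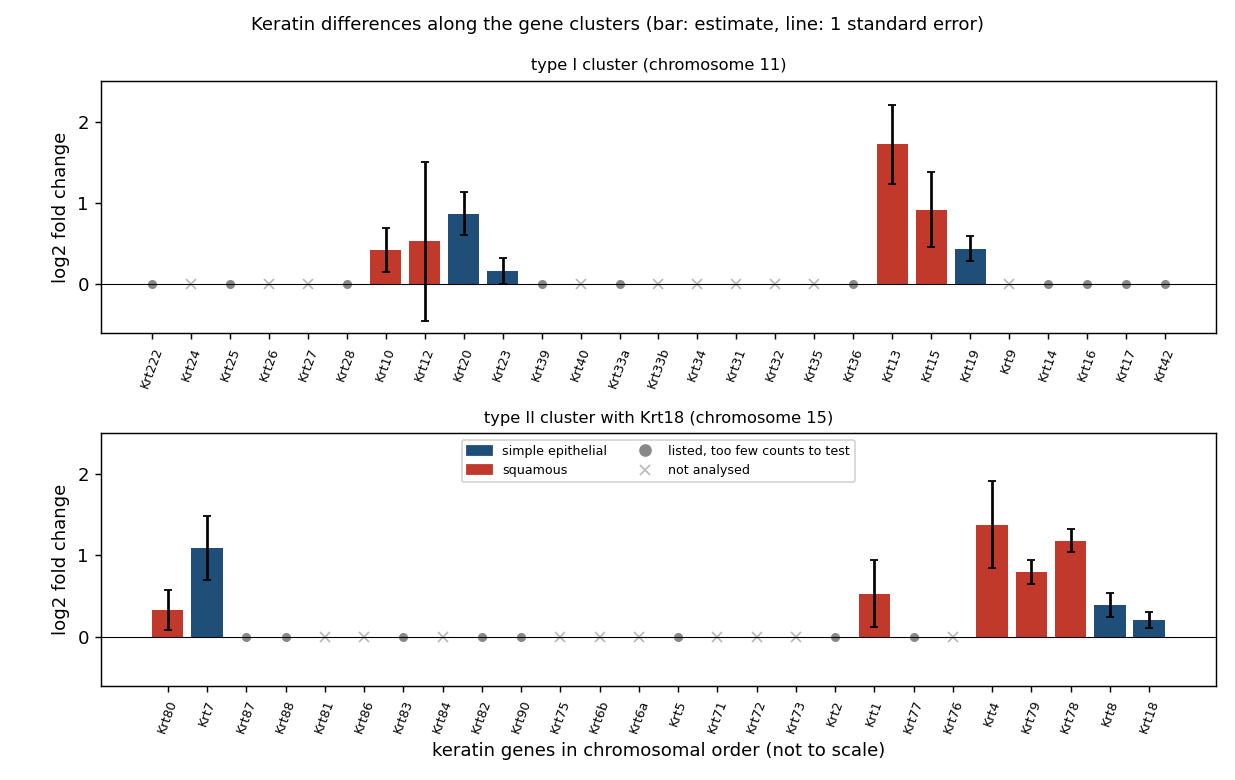
Log2 fold change (bars, with lines of 1 standard error) of the tested keratins in their order along chromosomes 11 and 15, not to scale, with grey circles for keratins with too few counts and crosses for keratins not analysed. The tested genes stand in short runs, such as Krt4 to Krt18 with values from 1.38 to 0.21, and all bars point up.

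General epithelial markers were higher together with the keratins. The summed level of 10 pan-epithelial markers was 1565, 1470 and 1256 TPM in vehicle libraries 1, 2 and 3 and 1684, 1617 and 1706 TPM in PEEPA-P5 1, 2 and 3, so that it too did not overlap and was lowest in vehicle 3. At an unadjusted p under 0.05, 3 of its 9 tested members were higher, against 5.92% of all genes, and the median log2 fold change was 0.28. Those were Epcam, an adhesion molecule, with 0.32 (SE 0.13), Spint2, a protease inhibitor, with 0.39 (SE 0.14), and the claudin gene Cldn7 with 0.92 (SE 0.25). Epcam was at 140.3, 144.4 and 93.35 TPM with vehicle and 143.4, 157.1 and 134.8 TPM with PEEPA-P5, and Cdh1, the epithelial cadherin, at 256.1, 270.4 and 189.0 TPM against 264.2, 265.5 and 257.8 TPM, and in both genes the groups overlapped in TPM but not in CPM. Of the 12 antral markers, 5 were higher and 1 lower at an unadjusted p under 0.05, against 5.92% and 6.14% of all genes. Besides Epcam and Cldn7, the higher ones were Muc5ac, Gkn1 and Pdx1, with log2 fold changes of 0.29, 0.31 and 0.54. The lower one was Muc6, the gland mucin, with -1.48, and a single lower gene among 12 is near the share of all genes. Muc6 was at 166.7, 435.5 and 500.3 TPM with vehicle and 136.4, 177.8 and 80.43 TPM with PEEPA-P5, which overlapped.

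The keratins were therefore also read on libraries scaled to the summed counts of the pan-epithelial markers, a choice made after the data had been seen, under which the median log2 fold change of all genes was -0.30. On that scale Krt19 was at 0.15, Krt8 at 0.09, Krt18 at -0.08 and Krt23 at -0.14, whereas Krt78 was at 0.89, Krt79 at 0.51, Krt13 at 1.49, Krt7 at 0.83 and Krt20 at 0.59. Of the 15 tested keratins 13 were then positive, against 13.3% of all genes. At an unadjusted p under 0.05, 4 were higher, namely Krt78, Krt79, Krt13 and Krt20, and 0.656% of all genes were higher and 21.3% lower. By its construction the scaling shifts all genes together.

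Markers of gastric glands and of the stroma had lower mean sums with PEEPA-P5. All 4 tested chief cell markers, Pgc, Cblif, Pga5 and Bhlha15, and 3 of 5 parietal cell markers, Slc26a7, Kcne2 and Clic6, were lower at an unadjusted p under 0.05, against 6.14% of all genes. The chief cell list summed to 8371, 22980 and 68620 TPM in vehicle libraries 1, 2 and 3 and to 6579, 8906 and 2077 TPM in PEEPA-P5 1, 2 and 3. The parietal cell list summed to 397.6, 1756 and 3387 TPM with vehicle and to 16.21, 378.2 and 4.55 TPM with PEEPA-P5, and vehicle 3, the lowest library for Krt7, Krt8, Krt19 and Krt20, was the highest for both lists. The 6 fibroblast markers summed to 39.52 to 111.1 TPM with vehicle and 5.04 to 73.84 TPM with PEEPA-P5, and the 5 endothelial markers to 12.3 to 20.62 TPM and 1.91 to 13.52 TPM, where Tie1 alone was at an unadjusted p under 0.05. The 5 smooth muscle markers summed to 55.49 to 146.3 TPM and 7.55 to 108.4 TPM, and the 5 leukocyte markers to 16.71 to 34.63 TPM and 5.31 to 29.5 TPM. The groups overlapped in each of these stromal and leukocyte sums, and the lowest value was always that of PEEPA-P5 3. In PEEPA-P5 1 and 2 the fibroblast sum was 47.58 and 73.84 TPM, for example. Vehicle 3 was the lowest vehicle library in all of them but the endothelial sum. The part of these cells in the keratin differences was not tested. Mesothelium also makes simple keratins, and its 4 markers in the table had at most 9 counts each and summed to at most 0.48 TPM. Among other intermediate filament genes 7 were tested, 2 with positive and 5 with negative log2 fold changes and a median of -0.45. Of these 1, the nuclear lamin gene Lmna, was higher at an unadjusted p under 0.05, where 5.92% of all genes were, with a log2 fold change of 0.41 (SE 0.13).

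Proteins that tie keratin filaments to junctions or crosslink them were listed as 26 genes, chosen with earlier results of these data known. Of the 26, 20 were tested. Of these, 15 had positive and 5 negative log2 fold changes, with a median of 0.27, and 0 passed the adjusted threshold in edgeR. At an unadjusted p under 0.05, 5 were higher and 0 lower, against 5.92% and 6.14% of all genes. Evpl, which encodes the plakin envoplakin, was at 24.22, 20.85 and 16.97 TPM in vehicle libraries 1, 2 and 3 and 25.17, 28.61 and 39.16 TPM in PEEPA-P5 1, 2 and 3. Dsc2 and Dsg2, the desmosomal cadherins of simple epithelia, had log2 fold changes of 0.58 (SE 0.17) and 0.34 (SE 0.13), and Plec, the plectin linker, 0.42 (SE 0.16). The fifth was Csnk1a1, a kinase that acts on keratin filaments, at 0.29 (SE 0.10). The cadherins of squamous desmosomes, Dsg1a, Dsg1b, Dsg3 and Dsc3, had at most 1, 2, 3 and 9 counts in a library, and Col17a1, of the hemidesmosome, at most 4. Dsp and Jup, the plaque proteins of all desmosomes, were at 84.98 ± 6.52 against 83.68 ± 18.1 TPM and 178.7 ± 1.79 against 175.9 ± 20.8 TPM (SD, n = 3 each).

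Among 22 transcriptional and splicing regulators of epithelial identity, 16 were tested, 13 with positive and 3 with negative log2 fold changes, and 0 passed in edgeR, while at an unadjusted p under 0.05, 4 were higher and 1 lower, against 5.92% and 6.14% of all genes. A single lower gene among 16 is near the share of all genes. Sox2, a transcription factor of stomach and foregut epithelium, was at 8.58, 7.42 and 5.11 TPM in vehicle libraries 1, 2 and 3 and 11.57, 9.42 and 10.99 TPM in PEEPA-P5 1, 2 and 3, which did not overlap, with a log2 fold change of 0.72 (SE 0.19). Klf4, a factor of differentiating epithelial cells, had 0.37 (SE 0.15), and Grhl1, a grainyhead-like factor, 0.26 (SE 0.11). Zfp750, known from the late differentiation of epidermis, was that gene, at 3.97 ± 1.13 TPM with vehicle and 2.32 ± 0.47 TPM with PEEPA-P5 (SD, n = 3 each). Pax9, Tfap2a, Tfap2c, Sox15 and Elf5, further factors of squamous epithelium, had at most 3 counts in any library.

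Other squamous genes were partly present. The 20 genes listed without keratins were chosen with earlier results of these data known, so their count is no independent test. Of these, 15 were in the table and 7 were tested. At an unadjusted p under 0.05, 4 were higher and 0 lower, against 5.92% and 6.14% of all genes. Those were Slurp1, a secreted protein of stratified epithelia, with a log2 fold change of 0.98 (SE 0.17), Sprr1a, a precursor of the cornified envelope, with 0.77 (SE 0.26), Serpinb5, a serpin, with 0.60 (SE 0.19), and Rptn, a cornified envelope gene of at most 32 counts, with 1.42 (SE 0.43). Some defining genes of the list were at or near 0, with at most 9 counts for Ivl, 8 for Lor, 3 for Tgm1 and 1 for Flg and Calml3. Others were abundant. Mean levels with vehicle and with PEEPA-P5 were 3456 and 3697 TPM for Sprr2a1 and 473.9 and 544.4 TPM for Ly6d. They were 374.9 and 584.6 TPM for Sprr1a and 364.8 and 660.8 TPM for Slurp1. Of these genes, only Slurp1 had groups that did not overlap in TPM. The list summed to 5481, 3904 and 4690 TPM in vehicle libraries 1, 2 and 3 and to 4917, 5503 and 6135 TPM in PEEPA-P5 1, 2 and 3, which overlapped. Most of that sum was Sprr2a1. Of 13 hair genes without keratins 3 were in the table, and 1 was tested, S100a3, an S100 protein of hair cuticle, which had at most 22 counts and a log2 fold change of 1.26 (SE 0.52, edgeR unadjusted p 0.046).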

How the data were processed

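The data were 6 RNA-seq libraries made from total RNA. Trizol extraction from flash-frozen tissue and an Illumina TruSeq kit are named in the labels' protocols, which leave strand and the animal behind each library unstated. Tools named in the submitters' processing notes are RSEM 1.2.12 and Bowtie2 2.2.5, with build mm9 and no settings. Per the file headers, the authors deposited expected counts, FPKM and TPM per gene; the deposited FPKM values are scaled to library size and length and served only as an alternative. Of the expected counts 9.82% were not whole, and they were rounded for testing.

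The test was that of edgeR 4.0.16 (R 4.3.3, robust quasi-likelihood, TMM factors, edgeR's expression filter, Benjamini-Hochberg adjustment over 13071 genes, threshold 0.05), PEEPA-P5 against vehicle, without covariates. TMM factors ran from 0.903 to 1.104, and CPM uses them. The standard errors are derived values, the absolute log2 fold change divided by the square root of the F statistic of that test. DESeq2 1.42.0, limma 3.58.1 (voom, and trend on log2 TPM), other scalings and filters, a replicate block and left-out libraries were alternatives. The deposited TPM served for levels and sums, which were not tested.

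The members, 21 gene lists and alternatives were chosen with earlier results of these data known, so counts over the lists are no independent tests. The epithelial scaling was added after seeing the data. Keratins with a mean of at least 1 TPM in either group are given by library, the other tested ones likewise or by range. Listed genes are given where the unadjusted p was under 0.05, where they define a cell type or, for a few, where they were abundant. A further gene that this rule takes is not reported here. Shared sequence was counted in 31-base stretches of GENCODE M21 transcripts. Because the reference is GRCm38.p6 and not mm9, coordinates are given for the promoter windows only. Same-numbered libraries of the 2 groups deviated from their group means together (r = 0.237, 0.346 and 0.235 over genes), so the numbers were taken as possible pairs. Between unlike numbers r ran from -0.349 to 0.176, and deviations from a mean of 3 libraries are not independent. The pairing comes from the data, not from the labels. The tests count reads, without molecular identifiers.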

Additional observations from a re-analysis of the deposited data

How the results depend on the processing

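The count of keratins past the adjusted threshold was 0 in all fits run except DESeq2, which called 2, and over all genes it was 103 with DESeq2, and between 0 and 1 on leaving out single libraries, the 1 being without vehicle 1. With the replicate block 0 genes and 0 keratins passed, and it changed no call. Of 285 alternative values for the 15 tested keratins, 278 kept their direction and call, 2 passed only with DESeq2, and 5 changed direction. These were Krt18 (-0.08) and Krt23 (-0.14) under the epithelial scaling, which moved the median of all genes to -0.30 and relative to which they were at 0.22 and 0.16, Krt23 without PEEPA-P5 3 (-0.01) and without both libraries numbered 3 (-0.04), and Krt12 without PEEPA-P5 1 (-0.09); the cause was not tested. The 278 say little beyond direction, because outside DESeq2 the fits called at most 1 gene, so a call could hardly change. They include Krt80 at 0.01 in place of 0.33 and Krt8 at 0.09 in place of 0.39, both under the epithelial scaling. On leaving out single libraries Krt23 ran from -0.01 to 0.30 and Krt12 from -0.09 to 2.38. The count of keratins higher at an unadjusted p under 0.05 was 8, where 5.92% of all genes were higher. It was 5 without vehicle 2 (2.44%), without PEEPA-P5 3 (3.85%) or without both libraries numbered 3 (3.47%). Under the epithelial scaling it was 4 (0.656%). The count of all genes at an unadjusted p under 0.05, in both directions, was 1576, and 717 without vehicle 2, 759 without vehicle 3, 1008 without PEEPA-P5 1 and 2872 under the epithelial scaling. Of those 2872 genes, 86 were higher and 2786 lower. The log2 ratio of summed TPM was 0.36 for simple epithelial keratins (0.22 to 0.50 on leaving out single libraries) and 0.63 for squamous keratins (0.42 to 0.94). The squamous sums overlapped, at 74.89, 50.12 and 37.21 TPM in vehicle 1, 2 and 3 and 94.55, 84.68 and 72.48 TPM in PEEPA-P5 1, 2 and 3. Krt12 alone gave 31.98 TPM of the sum in vehicle 1. The log2 ratio of the type II to type I balance was 0.00 and moved to -0.03 without both libraries numbered 3, while its spread between libraries was 0.04 (SD). Depth limits the 18 untested keratins, with at most 11 counts in a library.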
